A study of Homo sapiens with 22 samples.

Results

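The genes described here are 10 human lysine acetyltransferase genes, taken by name from the 60675 genes of the deposited table. The choice was made by name, but with earlier results of these data known. The genes are KAT2A, KAT2B and HAT1 of the GNAT family, KAT5, KAT6A, KAT6B, KAT7 and KAT8 of the MYST family, and EP300 and CREBBP, which encode p300 and CBP. Each had 1 entry in the table, and all 10 passed the low-count filter in each of the 9 comparisons made. Lysine acetyltransferases move an acetyl group from acetyl-CoA to a lysine side chain, and lysine deacetylases such as KDAC6 and KDAC8 take it off again. KAT2A and KAT2B are alternative catalytic subunits of the SAGA and ATAC coactivator complexes, and HAT1 acetylates newly made histone H4 before it is built into chromatin. KAT5 is the catalytic subunit of the NuA4/TIP60 complex, KAT6A, KAT6B and KAT7 work with BRPF, JADE and ING scaffold proteins, and KAT8 acetylates histone H4 in the MSL and NSL complexes. EP300 and CREBBP are closely related coactivators that bind CREB and many other transcription factors and acetylate histone H3.

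The study asked what loss of KDAC6 or KDAC8 activity does to gene expression in HT1080, a human fibrosarcoma cell line, and RNA was sequenced from 22 libraries in 6 groups. Wild-type cells (WT, untreated, 4 libraries) were compared with lines edited to carry a histidine-to-alanine substitution in the first catalytic domain of KDAC6 (KDAC6H216A, 4 libraries), in its second catalytic domain (KDAC6H611A, 4 libraries) or in KDAC8 (KDAC8H143A, 4 libraries). The other groups were wild-type cells given the KDAC6 inhibitor Tubastatin A at 1 µM or the KDAC8 inhibitor PCI-34051 at 5 µM for 2 days (3 libraries each), and both were compared with the untreated WT libraries. Per the study's methods the KDAC6H216A cells are a pool of 3 independent clones, the edits also brought in silent changes that make a restriction site, the KDAC8H143A line holds an unintended single-base insertion in an intron, and the libraries are biological replicates. The p-values below therefore measure the spread between libraries and not between independently edited lines.

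Total counts ran from 5248953 to 8998474 in the WT libraries, from 6837390 to 17170473 in the edited lines and from 24315766 to 29862665 in the inhibitor libraries. Every one of the 10 genes had at least 118 expected counts in each library. Mitochondrial ribosomal RNA took between 20.8% and 23.9% of the counts in WT but at most 0.0259% in KDAC8H143A and at most 0.00541% in the inhibitor groups, so that depth, this share and the group cannot be told apart in the comparisons of KDAC8H143A or an inhibitor with WT. Within the KDAC6 lines, KDAC6H216A replicate 1 (0.195%) and KDAC6H611A replicate 4 (0.173%) stood apart from the other libraries of their groups, which held from 13.2% to 15.1% and from 21.0% to 38.0%. HDAC6, the gene of KDAC6, was lower in KDAC6H216A than in WT (log2 fold change -1.25 ± 0.18 SE, adjusted p = 0.0054, edgeR) and did not pass the test in KDAC6H611A (-0.10 ± 0.18, adjusted p = 0.75), and HDAC8, the gene of KDAC8, did not pass it in KDAC8H143A (0.03 ± 0.13, adjusted p = 0.85). The paper reports slightly lower KDAC6 expression in KDAC6H216A by qPCR, but no significant change of KDAC6 or KDAC8 in any line by RNA-seq. It used DESeq2, and the reason for the difference in HDAC6 was not tested. The substitutions themselves cannot be read from gene counts. Of the mesenchymal markers that define fibrosarcoma cells, 8 or 9 of 9 reached 1 CPM in every group, and none of 7 epithelial markers did. Of 7 haematopoietic markers CD68 alone did.

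The sequences below are the RefSeq promoters (GRCh38.p14, 300 bases that run from upstream of the start site to 50 bases past it) of the 4 genes with the largest fold changes against WT: EP300 at chr22:41092342-41092641 (plus strand), HAT1 at chr2:171922211-171922510 (plus strand), KAT2A at chr17:42121318-42121617 (minus strand) and KAT2B at chr3:20040196-20040495 (plus strand). They are shown 5′ to 3′ on the gene's strand, and capitals mark matches on either strand to the GC box GGGCGG or to CCAAT.
EP300: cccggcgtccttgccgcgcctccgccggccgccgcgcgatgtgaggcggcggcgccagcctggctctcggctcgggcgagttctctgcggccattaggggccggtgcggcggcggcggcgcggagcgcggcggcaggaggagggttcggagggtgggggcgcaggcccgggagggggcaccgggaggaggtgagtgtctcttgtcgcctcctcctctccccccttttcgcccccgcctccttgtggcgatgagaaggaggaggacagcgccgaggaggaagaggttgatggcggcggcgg
HAT1: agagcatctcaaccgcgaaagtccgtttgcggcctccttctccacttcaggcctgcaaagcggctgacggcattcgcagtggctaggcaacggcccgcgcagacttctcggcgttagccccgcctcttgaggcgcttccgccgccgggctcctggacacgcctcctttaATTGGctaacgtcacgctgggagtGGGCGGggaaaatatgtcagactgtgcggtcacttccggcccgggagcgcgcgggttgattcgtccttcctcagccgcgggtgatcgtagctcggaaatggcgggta
KAT2A: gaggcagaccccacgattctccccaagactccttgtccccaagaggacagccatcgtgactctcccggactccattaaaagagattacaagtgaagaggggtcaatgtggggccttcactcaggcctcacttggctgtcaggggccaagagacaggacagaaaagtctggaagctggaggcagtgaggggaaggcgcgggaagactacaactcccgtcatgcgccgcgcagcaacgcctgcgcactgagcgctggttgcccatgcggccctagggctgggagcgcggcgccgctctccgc
KAT2B: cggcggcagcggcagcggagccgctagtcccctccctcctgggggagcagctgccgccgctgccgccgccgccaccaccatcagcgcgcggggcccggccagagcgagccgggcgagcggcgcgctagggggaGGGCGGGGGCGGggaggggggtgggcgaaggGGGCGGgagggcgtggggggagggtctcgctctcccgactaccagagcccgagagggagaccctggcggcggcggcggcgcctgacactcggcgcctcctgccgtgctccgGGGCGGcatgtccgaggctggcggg

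HAT1 held 1 GC box and 1 CCAAT match, KAT2B held 4 GC boxes, and EP300 and KAT2A held neither motif. Of 35116 RefSeq promoters of this length, 45.0% held the GC box and 34.6% held CCAAT. The GC content was 75.3% in the EP300 window, 63.3% in HAT1, 62.0% in KAT2A and 80.3% in KAT2B. The paralogues KAT2A and KAT2B, which encode interchangeable subunits, thus have promoters that differ in base composition and in GC boxes. A match is a description of the letters and not a binding site. Promoter entries were found for 8 of the 10 genes, not for KAT6A and KAT8.

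The level of each gene was set as CPM (read counts scaled by library size) with TMM scaling over all 22 libraries, a scaling that assumes most genes do not differ between libraries. To compare genes with each other, levels in WT were also divided by the length of the canonical transcript and scaled to the same sum in every library. On that scale HAT1 was highest (28.3 ± 1.58, SD, n = 4), followed by KAT8 (26.5 ± 2.96) and KAT2A (24.8 ± 0.713). KAT5 came next (17.3 ± 2.09), then EP300 (15.2 ± 1.32), KAT6A (15.0 ± 0.775), CREBBP (9.89 ± 0.529), KAT2B (8.88 ± 0.363), KAT7 (8.15 ± 0.781) and KAT6B (5.96 ± 0.623). The ranges of neighbours in this order overlapped except between KAT2A and KAT5, between KAT6A and CREBBP and between KAT7 and KAT6B. The order rests on the transcript chosen: with the length of all annotated exons in its place KAT2A came first (24.1), EP300 was second (13.4) and HAT1 was seventh (8.00). Whether a lower level in these bulk libraries means less RNA in every cell or loss from some cells cannot be told apart.

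**Figure D1:**
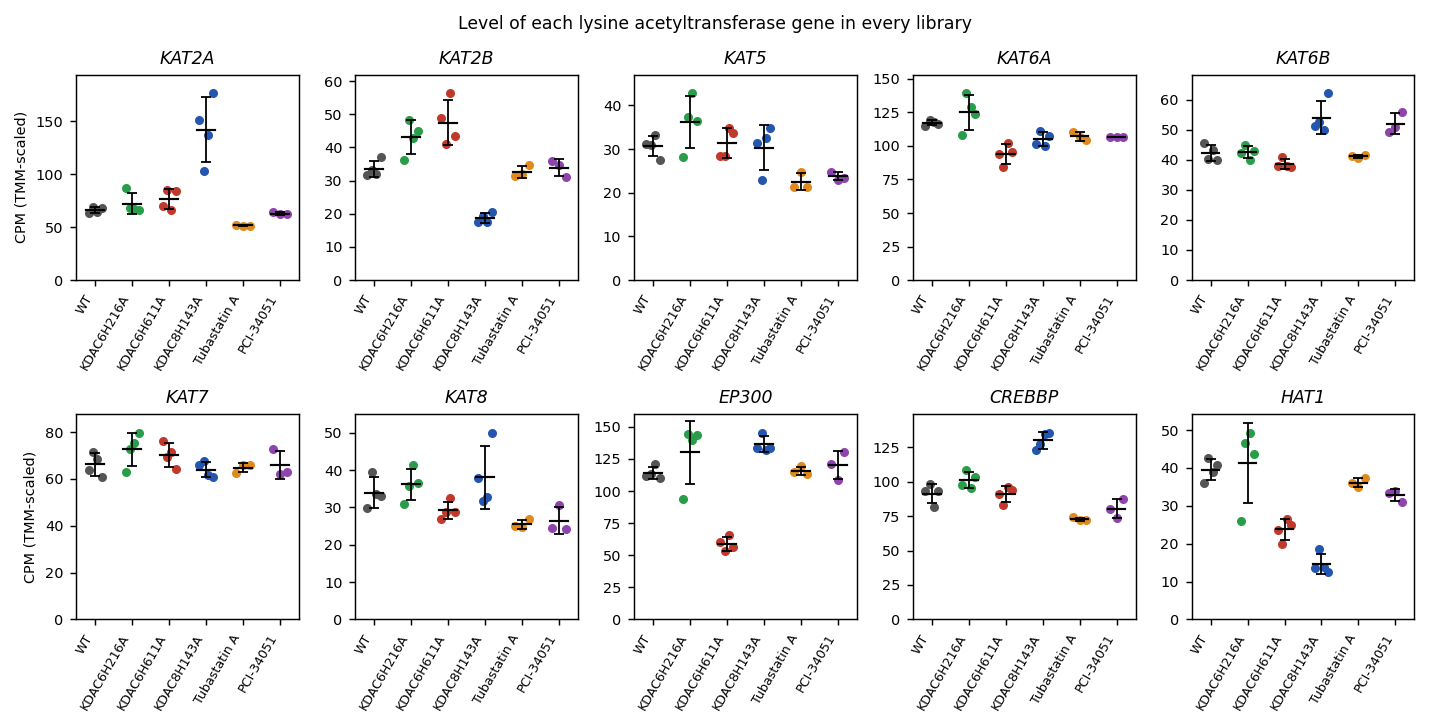
Level of each of the 10 genes in TMM-scaled CPM (vertical axes, from 0) in every library of the 6 groups, with points for libraries and bars for the mean and SD. The 4 KDAC6H611A libraries lie from 53.2 to 65.8 for EP300, below all other libraries, and the 4 KDAC8H143A libraries lie from 103.0 to 176.7 for KAT2A, above all others.

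In KDAC6H216A none of the 10 genes passed the test against WT. The threshold was an adjusted p of 0.01 in edgeR's quasi-likelihood test over all genes tested, as in all comparisons below, and 0.834% of 14500 genes passed it here. DESeq2 also called 0 of the 10, and 1 gene had an unadjusted p under 0.05. That gene was KAT2B, at 36.3, 48.4, 42.9 and 45.0 CPM against 31.8, 33.2, 32.0 and 37.2 CPM in WT (log2 fold change 0.27 ± 0.08 SE, adjusted p = 0.157, edgeR). The ranges overlapped through KDAC6H216A replicate 1, the library with the low share of mitochondrial ribosomal RNA, and without that library KAT2B passed (0.30, adjusted p = 0.00465). The same library held the lowest KDAC6H216A value of EP300, 93.6 CPM against 139.9 to 144.1 CPM in the other 3, and of HAT1, 26.0 against 43.6 to 49.4 CPM. It also held the highest value of KAT2A, 86.8 against 66.7 to 67.8 CPM.

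In KDAC6H611A, 3 of the 10 genes changed against WT: EP300 and HAT1 fell and KAT2B rose. Over all 14725 genes tested 12.3% passed, 6.08% higher and 6.24% lower, with a median log2 fold change of 0.03 over all genes and -0.04 over the 10. EP300 (chr22:41092592-41180077, GRCh38, plus strand) read 60.3, 53.2, 65.8 and 56.3 CPM in KDAC6H611A and 111.7, 113.3, 120.8 and 109.8 CPM in WT. Its highest KDAC6H611A library thus lay below its lowest WT library by a wide gap. The level was 0.527 of that in WT (95% interval 0.462 to 0.601), or -0.92 ± 0.09 as log2 fold change (adjusted p = 1.46e-05, edgeR). CREBBP (chr16:3725054-3880713, minus strand), the paralogue of EP300, read 91.1, 83.0, 96.1 and 94.3 CPM against 93.1, 98.2, 81.4 and 93.1 CPM. Its libraries overlapped those of WT, and its log2 fold change was 0.02 with a 95% interval from -0.18 to 0.22 (adjusted p = 0.90, edgeR).

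HAT1 (chr2:171922448-171983686, plus strand) read 23.7, 19.8, 26.5 and 25.0 CPM in KDAC6H611A against 35.9, 42.6, 38.9 and 40.9 CPM in WT. The ranges did not overlap, and the level was 0.613 of that in WT (log2 fold change -0.71 ± 0.10 SE, adjusted p = 0.000278, edgeR). KAT2B (chr3:20040446-20154404, plus strand) read 49.0, 41.1, 56.4 and 43.5 CPM against 31.8, 33.2, 32.0 and 37.2 CPM. These ranges did not overlap either, and the level was 1.44 times that in WT (0.53 ± 0.11, adjusted p = 0.00340, edgeR). The rise of KAT2B was the least secure of the 3: its adjusted p was 0.0146 without WT replicate 1, 0.0186 without WT replicate 2, 0.0202 without WT replicate 3 and 0.0151 without KDAC6H611A replicate 1, with fold changes from 0.49 to 0.52 on the log2 scale. With scaling to total counts alone, EP300 passed (-0.91, adjusted p = 0.00294), while HAT1 (-0.69, adjusted p = 0.0291) and KAT2B (0.54, adjusted p = 0.0819) did not. The other 6 genes did not pass, and of them KAT6A had the smallest adjusted p: it read from 84.4 to 102.1 CPM against 115.2 to 119.4 CPM in WT, without overlap (-0.29 ± 0.08, adjusted p = 0.0224, edgeR), and passed without KDAC6H611A replicate 2.

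The KDAC6 lines were also compared with each other directly. EP300 was lower in KDAC6H611A than in KDAC6H216A, at 0.483 of its level (log2 fold change -1.05 ± 0.12 SE, adjusted p = 0.000254, edgeR). It was the only one of the 10 to pass here, where 9.93% of 14961 genes did. HAT1 just missed the threshold (-0.70 ± 0.15, adjusted p = 0.0101), and the 2 groups overlapped because KDAC6H216A replicate 1 read 26.0 CPM. Without that library HAT1 passed (-0.84, adjusted p = 0.000230), and without it and KDAC6H611A replicate 4 both genes passed, EP300 with a log2 fold change of -1.11. For KAT2B, which rose in KDAC6H611A against WT, the difference between the lines did not pass (0.23 ± 0.11, 95% interval -0.01 to 0.47, adjusted p = 0.166).

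**Figure D2:**
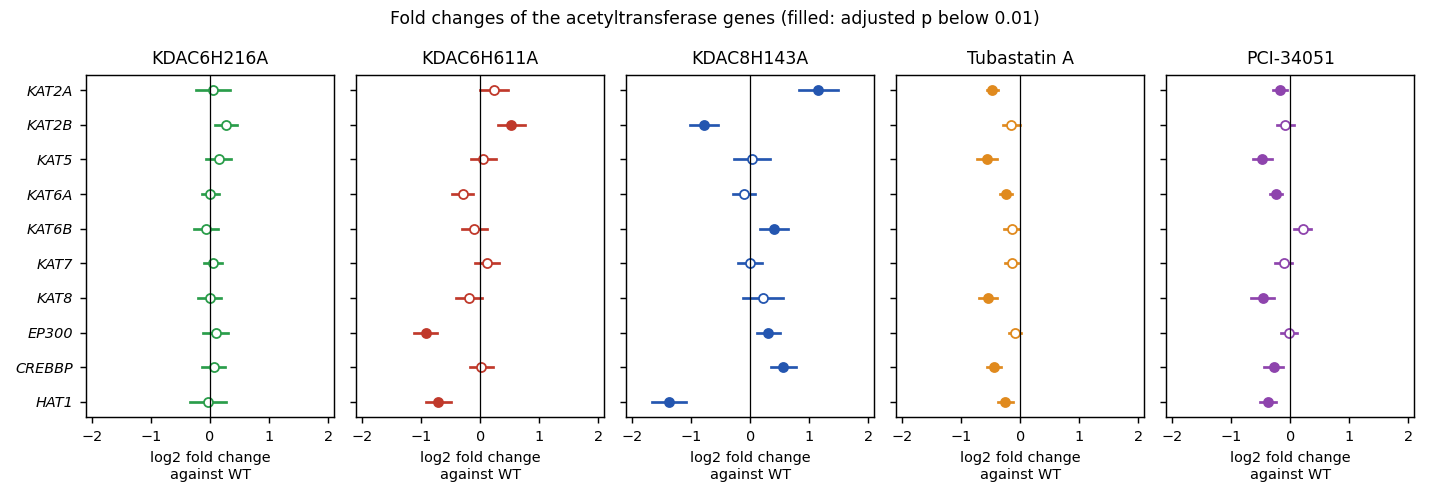
Log2 fold change against WT (horizontal axes) of each gene in the 5 comparisons with WT, with lines for the 95% interval and filled points where the adjusted p was below 0.01. EP300 (-0.92) and HAT1 (-0.71) stand left of 0 in KDAC6H611A, KAT2A (1.15) and HAT1 (-1.38) stand on either side of it in KDAC8H143A, and all filled points lie left of 0 in the inhibitor groups.

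In KDAC8H143A, 6 of the 10 genes changed against WT: KAT2A, CREBBP, KAT6B and EP300 rose, and HAT1 and KAT2B fell. Over all genes tested, 58.5% of 16101 passed, 31.6% higher and 26.9% lower, so the count of 6 is near the background. KAT2A (chr17:42113111-42121367, minus strand) read 151.5, 103.0, 136.8 and 176.7 CPM against 63.0, 69.2, 64.5 and 68.1 CPM in WT. All 4 libraries lay above WT but spread widely among themselves, and the level was 2.22 times that in WT (95% interval 1.77 to 2.79, log2 fold change 1.15 ± 0.15 SE, adjusted p = 3.94e-05, edgeR). KAT2B, the alternative subunit, moved the other way, at 17.5, 19.3, 17.6 and 20.5 CPM against 31.8 to 37.2 CPM. Its groups did not overlap, and the level was 0.579 of that in WT (-0.79 ± 0.11, adjusted p = 5.44e-05, edgeR). HAT1 read 13.7, 18.6, 13.7 and 12.6 CPM against 35.9 to 42.6 CPM in WT. It had the largest change of the 10, without overlap and at 0.385 of the WT level (-1.38 ± 0.13, adjusted p = 5.13e-06, edgeR).

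CREBBP read 123.1, 127.2, 134.6 and 135.8 CPM in KDAC8H143A against 81.4 to 98.2 CPM in WT, without overlap (log2 fold change 0.56 ± 0.10 SE, adjusted p = 0.000267, edgeR). EP300 read 133.6, 145.6, 132.2 and 133.9 CPM against 109.8 to 120.8 CPM (0.31 ± 0.09, adjusted p = 0.00677), and KAT6B (chr10:74824927-75032624, plus strand) read 51.2, 52.7, 49.8 and 62.1 CPM against 40.0 to 45.6 CPM (0.40 ± 0.11, adjusted p = 0.00516). The ranges stood apart for all 3 genes, as they did for KAT6A, which did not pass (-0.11, adjusted p = 0.27, edgeR). The calls of EP300 and KAT6B were the weakest: EP300 lost its call without any 1 of the 8 libraries (adjusted p from 0.0116 to 0.0382), and KAT6B lost it in 6 of the 8 such fits. The other 4 genes, all of the MYST family, did not pass. KAT7 (chr17:49788624-49835026, plus strand) had a log2 fold change of 0.00 with a 95% interval from -0.20 to 0.20, and KAT5 (chr11:65711996-65719604, plus strand) had 0.03 with an interval from -0.27 to 0.33.

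The changes in KDAC8H143A went with the base composition of the transcripts. The GC content of a gene was taken over the bases of all its annotated transcripts. Over the 10 genes the Pearson correlation of the log2 fold change with this GC content was 0.75, and over 15897 genes of the table it was 0.52. With Tubastatin A against WT, described below, it was -0.83 over the 10 and -0.08 over all genes, with PCI-34051 against WT it was -0.41 and -0.04, and for PCI-34051 against KDAC8H143A it was -0.89 and -0.44. KAT2A has the highest GC content of the 10 (59.0%) and HAT1 the lowest (39.9%), with KAT2B (41.8%) next to it. When a smooth term in GC content and length was removed from each library, 3 of the 10 genes passed, against 48.4% of all genes. HAT1 still fell (-0.70, adjusted p = 3.97e-05, edgeR) and KAT2A still rose (0.41, adjusted p = 0.00212), both by a smaller step, and KAT5 now fell (-0.58, adjusted p = 0.000408). CREBBP (-0.04), KAT2B (-0.20, adjusted p = 0.167), EP300 (0.16) and KAT6B (0.32) did not pass. The correction cannot separate a GC-linked bias of the libraries from GC-linked biology, and the part of either in these changes was not tested.

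**Figure D3:**
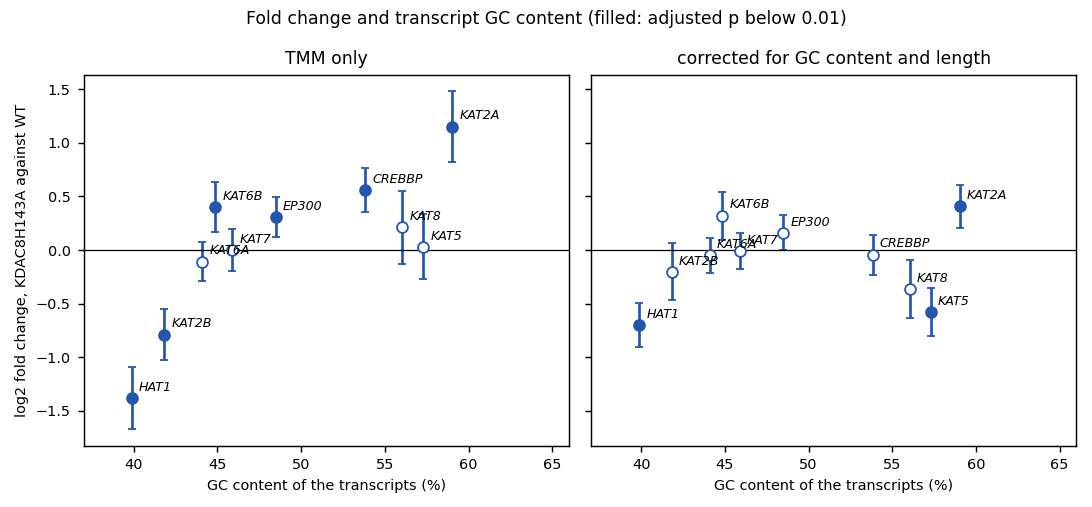
Log2 fold change in KDAC8H143A against WT (vertical axis) by the GC content of each gene's annotated transcripts in percent (horizontal axis). TMM scaling is on the left and the GC and length correction on the right, with bars for the 95% interval and filled points for an adjusted p below 0.01. KAT2A at 59.0% GC went from 1.15 to 0.41 and HAT1 at 39.9% GC from -1.38 to -0.70.

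With Tubastatin A, 6 of the 10 genes changed against WT and all 6 fell: KAT5, KAT8, KAT2A, CREBBP, HAT1 and KAT6A. Over all genes tested, 57.9% of 15246 passed and 28.6% were lower, with a median log2 fold change of 0.00 over all genes and -0.25 over the 10. KAT2A read 51.9, 51.5 and 51.4 CPM against 63.0 to 69.2 CPM in WT, the tightest group of the comparison and fully below WT (log2 fold change -0.47 ± 0.05 SE, adjusted p = 3.08e-08, edgeR). KAT8 (chr16:31114489-31131393, plus strand) read 24.95, 24.6 and 26.9 CPM against 29.7 to 39.5 CPM, and KAT5 read 21.3, 24.7 and 21.4 CPM against 27.6 to 33.2 CPM. Neither overlapped WT, and the log2 fold changes were -0.54 ± 0.07 (adjusted p = 2.66e-06) and -0.57 ± 0.08 (adjusted p = 3.61e-06). CREBBP read 74.1, 71.9 and 72.4 CPM against 81.4 to 98.2 CPM, without overlap, at 0.737 of the WT level (-0.44 ± 0.06, adjusted p = 1.44e-06, edgeR).

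KAT6A fell by less (log2 fold change -0.24 ± 0.05 SE, adjusted p = 0.000148, edgeR), at 104.2 to 110.3 CPM against 115.2 to 119.4 CPM. HAT1 read 36.0, 35.1 and 37.3 CPM and overlapped WT (-0.25 ± 0.06, adjusted p = 0.000923), and it lost its call without WT replicate 2 (adjusted p = 0.0107). EP300 did not pass and read 114.6, 119.4 and 112.9 CPM against 109.8 to 120.8 CPM in WT (-0.09, 95% interval -0.20 to 0.01). The fold changes were scaled within each pair of groups and the levels over all 22 libraries, and for the inhibitor groups the pairwise scale set the treated libraries lower.

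With PCI-34051 the same 6 genes passed and again fell, and this comparison shares its WT libraries with the one above. Here 51.1% of 15346 genes tested passed and 25.6% were lower. KAT5 read 24.8, 23.0 and 23.4 CPM against 27.6 to 33.2 CPM in WT, without overlap (log2 fold change -0.47 ± 0.07 SE, adjusted p = 2.91e-05, edgeR). HAT1 read 33.4, 33.8 and 31.0 CPM against 35.9 to 42.6 CPM, also without overlap, at 0.769 of the WT level (-0.38 ± 0.06, adjusted p = 5.72e-05). KAT8 (-0.47 ± 0.09, adjusted p = 0.000249), CREBBP (-0.28 ± 0.07, adjusted p = 0.00272) and KAT2A (-0.17 ± 0.05, adjusted p = 0.00832) each had libraries within the WT range, and KAT6A (-0.24 ± 0.05, adjusted p = 0.000314) had none. The call of KAT2A was lost without any 1 of the 7 libraries, and that of CREBBP without PCI-34051 replicate 1 or 2 or WT replicate 2. KAT6B was the one gene above 0, at 49.4, 50.7 and 55.9 CPM against 40.0 to 45.6 CPM, and did not pass (0.21 ± 0.07, adjusted p = 0.0170), though it passed without WT replicate 1 (0.25).

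The falls in both inhibitor groups depended on the scaling. With total counts alone the median of all genes stood 0.35 higher on the log2 scale for Tubastatin A and 0.38 higher for PCI-34051, and none of the 10 genes passed the test as lower. EP300 (0.26), KAT6B and KAT7 passed as higher with Tubastatin A, against 64.0% of all genes that passed, and EP300, KAT2A (0.21), KAT2B, KAT6B and KAT7 with PCI-34051, against 61.1%. Values below 0 that did not pass were those of KAT5 (-0.21), KAT8 (-0.19), KAT2A (-0.12) and CREBBP (-0.09) with Tubastatin A and of KAT5 (-0.09) and KAT8 (-0.08) with PCI-34051. Taken relative to that median, all 10 genes lay below it with Tubastatin A (-0.56 to -0.09) and 9 of 10 with PCI-34051 (-0.47 to 0.21). When all 6 groups were fitted together, CREBBP alone passed with Tubastatin A (-0.33) and no gene did with PCI-34051. There 3 had an unadjusted p under 0.05: KAT5 (-0.37) and KAT8 (-0.36) were lower and KAT6B (0.30) was higher. DESeq2 on the 2 groups called 5, all lower. After the GC and length correction all 10 genes passed as lower with Tubastatin A (-0.49 to -0.15). With PCI-34051, KAT7 (-0.21) then joined the genes that fell and KAT2A (-0.16) no longer passed. For the joint fit, DESeq2 and this correction, the share of all genes that passed is not given here. Their counts describe the settings and are not a result about the 10 genes. The depth and the share of mitochondrial ribosomal RNA differ with the inhibitor groups in every library, and their part in these falls was not tested.

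The inhibitors were also set against each other, at doses that differ (1 µM Tubastatin A and 5 µM PCI-34051). KAT2A (log2 fold change -0.30 ± 0.04 SE, adjusted p = 0.000418, edgeR) and KAT6B (-0.35 ± 0.05, adjusted p = 0.000629) were lower with Tubastatin A than with PCI-34051, without overlap, among 5.65% of 18409 genes that passed. For the other 8 genes the difference did not pass, with log2 fold changes from -0.16 for CREBBP to 0.13 for HAT1. CREBBP passed without PCI-34051 replicate 2.

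Each inhibitor was then compared with the edited line of the same enzyme. Against KDAC8H143A, PCI-34051 libraries were lower for KAT2A (log2 fold change -1.14 ± 0.17 SE, adjusted p = 0.000150, edgeR) and CREBBP (-0.66 ± 0.11, adjusted p = 0.000330) and higher for HAT1 (1.19 ± 0.15, adjusted p = 5.59e-05) and KAT2B (0.89 ± 0.12, adjusted p = 8.03e-05), where 58.2% of 18540 genes passed. These 4 differences had no overlap between groups, but neither had those of EP300 and KAT8, which did not pass. The share of all genes without overlap is not given here. After the GC and length correction 1 of the 4 differences passed, that of KAT2A. Against KDAC6H611A, Tubastatin A libraries were higher for EP300 (0.86 ± 0.09, adjusted p = 5.35e-05) and HAT1 (0.49 ± 0.10, adjusted p = 0.00216) and lower for KAT2A (-0.68), KAT2B (-0.65), KAT5 (-0.59) and CREBBP (-0.43), where 34.9% of 16608 genes passed. EP300 was thus lower in KDAC6H611A than in WT, than in KDAC6H216A and than in Tubastatin A-treated cells. These tests share the KDAC6H611A libraries and are not independent of each other. Depth and the share of mitochondrial ribosomal RNA also separate all Tubastatin A from all KDAC6H611A libraries, and their part was not tested. Of the other 5 calls, those of CREBBP, HAT1 and KAT5 were lost without 1 of several libraries, CREBBP in 4 of 7 such fits, HAT1 in 3 and KAT5 in 2. With total counts alone EP300 (1.17) and HAT1 (0.79) passed, and KAT2A (-0.375), KAT2B (-0.33), KAT5 (-0.29) and CREBBP (-0.13) did not. After the GC and length correction HAT1 (0.21) and KAT5 (-0.37) did not pass, and EP300, KAT2A, KAT2B and CREBBP did. The shares of all genes under these settings are not given here.

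The ratio of paralogues within a library needs no scaling between libraries. The 3 pairs below were chosen after their values were seen and are given without a test. The ratio of EP300 to CREBBP counts was 1.26 ± 0.155 (SD, n = 4) in WT, from 1.15 to 1.49, and 0.646 ± 0.037 in KDAC6H611A, from 0.597 to 0.685. It was 1.29 ± 0.224 in KDAC6H216A, 1.05 ± 0.080 in KDAC8H143A, 1.59 ± 0.062 with Tubastatin A (n = 3) and 1.496 ± 0.018 with PCI-34051 (n = 3). KDAC6H611A was the only group in which every library held fewer EP300 than CREBBP counts.

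The ratio of KAT2A to KAT2B was 1.98 ± 0.107 in WT and 7.59 ± 1.56 in KDAC8H143A, from 5.33 to 8.66, and its means in the other groups ran from 1.58 to 1.86. The ratio of KAT6A to KAT6B was 2.78 ± 0.197 in WT, 1.96 ± 0.161 in KDAC8H143A and between 2.06 and 2.94 on average elsewhere. KAT2A (59.0%) and KAT2B (41.8%) stand far apart in GC content, so their ratio in KDAC8H143A carries the relation with GC content described above.

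**Figure D4:**
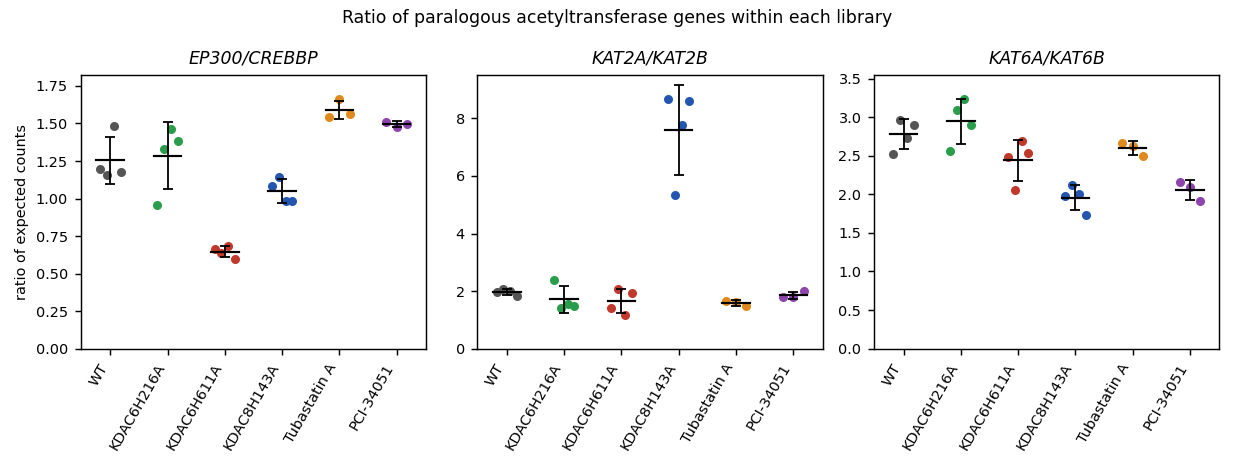
Ratio of expected counts of EP300 to CREBBP, KAT2A to KAT2B and KAT6A to KAT6B (vertical axes, from 0) in every library of the 6 groups, with points for libraries and bars for the mean and SD. The KDAC6H611A libraries lie from 0.597 to 0.685 for EP300 to CREBBP, and the KDAC8H143A libraries from 5.33 to 8.66 for KAT2A to KAT2B.

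The proteins that the acetyltransferases work with were read from 9 lists of 103 genes, of which 98 or 99 were tested in each comparison with WT. The lists were chosen with earlier results of these data known. In KDAC6H216A none of 98 changed, with a median log2 fold change of 0.02. In KDAC6H611A 7 of 99 changed, 4 higher and 3 lower, with a median of -0.03 and against 12.3% of all genes. With total counts alone 1 of the 99 passed, CITED4, which lies below the floor in WT. After the GC and length correction 7 passed, 2 higher and 5 lower. The shares of all genes under total counts and under this correction are not given here, so these counts are not a result about the lists. CREB1, the transcription factor for which CREBBP is named, fell (log2 fold change -0.50 ± 0.10 SE, adjusted p = 0.00282, edgeR), and CITED4, which binds p300 and CBP, read 0.258 CPM on average in WT and 3.00 CPM in KDAC6H611A. CITED4 passed the low-count filter in this comparison alone, through the group where it is high. Its WT mean lies below the 3-count floor of every WT library, so no fold is given. Its call is included in the counts above and is not read as a result. Each of the remaining 5 stood in a list of its own: the SAGA subunit TAF12 (0.84) and the KAT7 partner ING4 (0.75) rose, as did ACSS2 (0.44), which makes acetyl-CoA from acetate, and the NuA4 subunit ACTL6A (-0.57) and the cohesin acetyltransferase ESCO2 (-0.75) fell. After the GC and length correction ING4 (0.69), ACSS2 (0.35) and ACTL6A (-0.52) no longer passed, while TAF12, ESCO2 and CREB1 did. The 7 genes that passed then were thus not the same 7. None of the 6 histone chaperone partners of HAT1 changed with it, and their median was -0.19.

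In KDAC8H143A 60 of 99 partner genes changed, 30 in each direction, near the 58.5% of all genes that passed (31.6% higher and 26.9% lower). With total counts alone 64 did, 45 higher and 19 lower, and the share of all genes under that scaling is not given here. The counts of the lists below are small and are to be read against the shares of 58.5%, 31.6% and 26.9%. Of the 9 BRPF, JADE and ING genes 5 passed and all rose (ING5 by 1.11, median of the list 0.59, median of all genes 0.08). Of 10 bromodomain reader genes tested 7 passed and 6 of them rose, BRD9 the most (2.19 ± 0.18, adjusted p = 2.11e-06, edgeR), with a list median of 0.66. Of the 15 NuA4 partners of KAT5, 9 passed and 7 of them fell (median -0.39), YEATS4 the most (-1.83), while EP400, the large ATPase of the complex, rose (1.03). Among the 6 chaperone partners of HAT1 (median -0.61), 4 fell, ASF1A the most (-2.32), and NASP rose (0.72). The NSL scaffold KANSL1 rose (1.28), the SAGA subunit TAF9B fell (-1.89), CRTC1 rose (1.12) and CITED2 fell (-1.39). ATAT1, the tubulin acetyltransferase, rose (1.25), ESCO2 fell (-1.94), and of the acetyl-CoA genes PDHB fell (-1.34). ACSS1 read 2.103 CPM in KDAC8H143A and 0.219 CPM in WT, below the floor of every WT library. It passed the filter in this comparison alone, through the group where it is high. Its call is included in the count of 60 and is not read as a result. After the GC and length correction 56 of the 99 passed, 24 higher and 32 lower, against 48.4% of all genes. The split of all genes by direction under this correction is not given here. CRTC1 (0.02), TAF6L (0.86 before and 0.00 after) and ING5 (0.42) no longer passed, and the changes of TAF9B (-1.01), EP400 (0.32), ASF1A (-1.40) and ESCO2 (-1.23) were smaller by over 1.5 times.

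With Tubastatin A 60 of 98 partner genes changed, 16 higher and 44 lower (median -0.14), and with PCI-34051 47 did, 15 higher and 32 lower (median -0.06), against medians of 0.00 and -0.01 over all genes. The shares of all genes that passed, 57.9% with 28.6% lower and 51.1% with 25.6% lower, are near the first count of each. ESCO2 fell in both (-0.93 and -1.01), as did the SAGA subunit ENY2 (-0.86 and -0.94), the bromodomain gene BRD7 (-0.69 and -0.81), HCFC1 of the NSL complex (-0.67 and -0.68) and ING5 (-0.91 and -0.68). CRTC1, a coactivator of CREB, rose in both (0.69 and 1.16), as did TAF9B (0.58 and 0.71) and CLOCK (0.35 and 0.43). With total counts alone the split turned to 50 higher and 12 lower with Tubastatin A and to 54 higher and 9 lower with PCI-34051. Of all genes 64.0% and 61.1% passed under that scaling. The 5 genes named here as lower then stood at -0.62 to -0.29.

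Over the 22 libraries, the genes whose level went most closely with a member were found among 11555 genes with a mean of at least 5 CPM, by Pearson correlation of log2(CPM + 1). These libraries share their groups, depth and base composition, so the values describe likeness only. For EP300 they were TSHZ1 (0.96), ULK2 (0.95) and GIGYF2 (0.95), and once group means were taken out these were 0.58, 0.51 and 0.35. For HAT1 they were CCT6A (0.99), SNRPB2 (0.98) and DNAJC13 (0.98), with 0.90 for CCT6A within groups. For KAT2A they were SPRN (0.99), SGSM2 (0.99) and ZBTB48 (0.98), with 0.93 for SPRN within groups, and these 3 genes have GC contents of 60.7% to 64.9%. For KAT2B they were AC104389.28 (0.96), CAPG (0.96) and PMPCB (0.95), with 0.51, 0.62 and 0.61 within groups. For CREBBP they were PKDCC (0.96), ZBTB40 (0.95) and PCNXL3 (0.95), with 0.56, 0.28 and 0.47 within groups. KAT7 had the loosest likeness, with C16orf70 at 0.79.

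**Figure D5:**
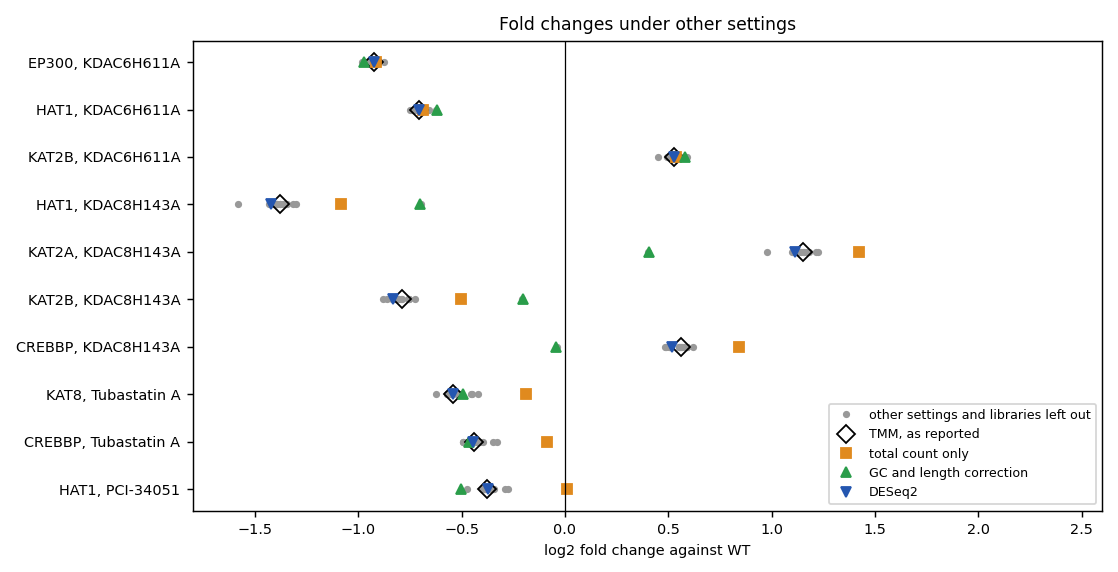
Log2 fold change against WT (horizontal axis) of 10 gene and group pairs under every setting, with an open diamond for the value as reported, coloured symbols for total counts alone, the GC and length correction and DESeq2, and grey points for the other settings and for libraries left out. EP300 in KDAC6H611A stays between -0.98 and -0.87, while HAT1 with PCI-34051 goes from -0.38 to 0.01 with total counts alone.

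Some of the counts could be shared with other genes. RNASEH2C, on the opposite strand, overlaps 38.6% of the annotated exonic bases of KAT5, and a protein-coding gene on the same strand overlaps 10.7% of those of KAT2A. The methods give default parameters for the counting and name no strand setting. Reads of KAT5 and RNASEH2C therefore cannot be told apart from these files, and the values of KAT5 are uncertain to that extent. KAT7 has an annotated pseudogene, KAT7P1, which could take or give reads.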

How the data were processed

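Per the submitters' processing notes and the methods, the authors trimmed reads with Trimmomatic 0.39, aligned them to GRCh38 with Bowtie2 2.4.5, estimated counts with RSEM 1.3.3 and tested them with DESeq2 1.38.2. The methods state default parameters for alignment and counting. The annotation release is not given in the sources used here, and no strand setting is named. The deposited table holds expected counts per gene, not normalized, for 22 libraries, and 0 columns were left unused. Expected counts need not be whole and were rounded before testing.

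Of 60675 gene IDs 56558 matched GENCODE 44, which gave coordinates, lengths and GC content. Pairs of groups were fitted over all genes with edgeR 4.0.16 (filterByExpr, TMM, glmQLFit, glmQLFTest) under R 4.3.3. Adjusted p-values follow Benjamini and Hochberg, and 0.01, the level the methods set, was the limit for a call. Intervals are 95%. Fold changes use TMM within the pair and levels use TMM over all libraries, so they differ slightly. A floor of 3 counts per library is 0.101 to 0.572 CPM, by depth, and covers counting error only. Scripts were tested on simulated data.

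Alternatives were an adjusted p of 0.05, DESeq2 1.42.0, upper-quartile and total-count scaling, no filter, a minimum of 10 counts in every library, a replicate block, a correction for GC content and length (mgcv 1.9.3), the block with that correction, thinning to 5248953 counts, 1 fit of all 6 groups and each library left out. Leaving out both KDAC6 libraries low in mitochondrial ribosomal RNA was chosen after seeing the data. Levels and likeness were computed in Python 3.11.15 (pandas 2.3.3 over numpy 2.4.6), and matplotlib 3.10.9 drew the figures.

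The members and gene lists were chosen with earlier results of these data known. Named genes are all 10 members, for each list and comparison with WT the largest rise and fall past the threshold among genes of at least 1 CPM in the higher group, the 3 genes most correlated with each member, and HDAC6 and HDAC8. Comparisons with WT share its libraries.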

Additional observations from a re-analysis of the deposited data

Results flagged for a closer look

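Within groups of 4 libraries, 40 sets of values were examined for a library far from the other 3 (Dixon's test), and 4 were found, where chance gives about 1 in 20. KDAC6H216A replicate 1, the library low in mitochondrial ribosomal RNA, read 86.8 CPM for KAT2A, above the others of its group, and 93.6 CPM for EP300, below them. KDAC6H611A replicate 2 read 40.9 CPM for KAT6B, and KDAC8H143A replicate 2 read 145.6 CPM for EP300, each above the others of its group.

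In 13 cases the direct test between groups that share WT as their control found a difference. Between KDAC6H611A and KDAC6H216A this was EP300 (log2 fold change -1.05). Between Tubastatin A and PCI-34051, at doses that differ, these were KAT2A (-0.30) and KAT6B (-0.35). Between PCI-34051 and KDAC8H143A these were CREBBP (-0.66), KAT2A (-1.14), KAT2B (0.89) and HAT1 (1.19). Between Tubastatin A and KDAC6H611A these were CREBBP (-0.43), EP300 (0.86), KAT2A (-0.68), KAT2B (-0.65), HAT1 (0.49) and KAT5 (-0.59). The shares of all genes that passed were, in this order of comparisons, 9.93%, 5.65%, 58.2% and 34.9%. The cases are to be read against these shares.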

How the results depend on the processing

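Of 90 pairs of gene and comparison 34 passed the test, and 6 of the 34 did so in the same direction under every alternative and without each library in turn. The counts below describe the settings. Where no share of all genes stands beside a count, it is not a result about these genes. With total counts alone the number of the 10 genes that changed was 1 in KDAC6H216A and 1 in KDAC6H611A against WT. It was 3 with Tubastatin A against WT, where 64.0% of all genes passed, and 2 for Tubastatin A against KDAC6H611A. Total counts also turned KAT6A (0.11) and HAT1 (0.10) with Tubastatin A and CREBBP (0.10), KAT6A (0.15), KAT2A (0.21) and HAT1 (0.0095) with PCI-34051 to values above 0, and moved 36 of 60 levels beyond their SD. They shifted the median of all genes by 0.17 in KDAC6H216A, 0.04 in KDAC6H611A and 0.36 in KDAC8H143A. After the GC and length correction CREBBP in KDAC8H143A turned to -0.04. The number of the 10 genes that changed was then 3 in KDAC8H143A, where 48.4% of all genes passed, and 1 for PCI-34051 against KDAC8H143A. With Tubastatin A it was 10, all lower (log2 fold changes -0.49 to -0.15). In 1 fit of all 6 groups it was 1 with Tubastatin A, 0 with PCI-34051, 0 between the inhibitors and 3 between the KDAC6 lines. Between the KDAC6 lines it was 3 at an adjusted p of 0.05, 3 with DESeq2, 2 with no filter and 2 without both libraries low in mitochondrial ribosomal RNA. Between the inhibitors it was 1 after thinning to the smallest total.

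Without 1 library in turn the number ran from 0 to 1 in KDAC6H216A, 2 to 4 in KDAC6H611A, 4 to 5 in KDAC8H143A, 5 to 7 with Tubastatin A and 4 to 6 with PCI-34051. It ran from 1 to 2 between the KDAC6 lines, 2 to 3 between the inhibitors, 4 to 6 for PCI-34051 against KDAC8H143A and 3 to 6 for Tubastatin A against KDAC6H611A. Equal replicate numbers are not said to share a batch, and the deviations of same-numbered libraries correlated from -0.35 to 0.55, so the numbers do not pair them in any comparison. With the replicate block the numbers were 0, 3, 4, 6 and 5 for the comparisons with WT in the order above, and 1, 2, 4 and 5 for the direct ones. With the block and the GC and length correction, 3 genes changed in KDAC8H143A (CREBBP at -0.04), 1 for PCI-34051 against KDAC8H143A and 2 for Tubastatin A against KDAC6H611A. The causes of these shifts were not tested. Depth limits the precision most in the shallower WT and KDAC6 libraries: the fewest counts of a member were 118, of HAT1 in KDAC6H611A replicate 2.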
